A study of Homo sapiens with 2 samples.

Results

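The AP-1 transcription factor was examined through 10 of its subunits and close relatives, namely FOS, FOSB, FOSL1, FOSL2, JUN, JUNB, JUND, BATF, BATF3 and MAFF. A probe was taken as belonging to a subunit when the RefSeq accession given for it on the array mapped to that gene. This rule found 13 of the 41000 probes, for 9 of the 10 genes among 17237 genes named on the array, and no probe was matched to JUND. The cells were SKOV3, a human ovarian adenocarcinoma line grown in medium with 10% fetal calf serum. Clone cl-sh3 carried a lentiviral short hairpin RNA against RUNX2, and the control clone carried the same pLKO.1-puro vector with a scrambled sequence that matches no mammalian transcript. Both clones were selected with puromycin, and each is 1 clone, so clonal differences and RUNX2 knockdown cannot be told apart. Both RNAs were labelled with different dyes and put on the same Agilent whole-genome arrays, with cl-sh3 in Cy5 in hybridization 1 and in Cy3 in hybridization 2. The dye swap used the same 2 RNAs and is counted as 1 replicate, so no p-value can be given, and the spread between hybridizations is technical.

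AP-1 is a dimer of basic leucine zipper (bZIP) proteins. JUN proteins can pair with each other or with FOS proteins, while FOS proteins need a JUN partner to bind DNA well. BATF proteins pair with JUN proteins but carry no activation domain of their own, and MAFF is a small MAF protein that joins other bZIP proteins at related sites. Several subunits are immediate early genes, switched on within minutes of serum or growth factor addition through serum response elements and cyclic AMP response elements (CRE), and JUN also acts on its own promoter. RUNX proteins and AP-1 are known to act side by side on promoters of matrix metalloproteinases such as MMP13, which is why these subunits are of interest after RUNX2 knockdown.

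The control regions of JUN and JUNB, the subunits with the lower signal in cl-sh3 described further on, and of FOS, whose ratios had opposite signs in the hybridizations, are given here so that their shared elements can be seen. Each run is the 250 bases before the annotated gene start in RefSeq (build GRCh38.p14), with core CRE letters (TGACG) and 8-base AP-1 or CRE sites (TGANNTCA) in capitals.
JUNB, chr19:12791236-12791485, plus strand: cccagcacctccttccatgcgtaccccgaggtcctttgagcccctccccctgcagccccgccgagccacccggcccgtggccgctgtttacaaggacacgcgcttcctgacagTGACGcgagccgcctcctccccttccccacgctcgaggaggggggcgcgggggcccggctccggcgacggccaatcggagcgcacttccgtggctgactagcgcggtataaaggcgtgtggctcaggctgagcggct
JUN, chr1:58784048-58784297, minus strand: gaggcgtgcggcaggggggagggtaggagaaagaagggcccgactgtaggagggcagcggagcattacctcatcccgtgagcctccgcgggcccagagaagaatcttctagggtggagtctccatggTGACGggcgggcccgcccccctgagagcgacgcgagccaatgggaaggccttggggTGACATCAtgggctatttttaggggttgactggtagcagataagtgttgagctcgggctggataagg
FOS, chr14:75278578-75278827, plus strand: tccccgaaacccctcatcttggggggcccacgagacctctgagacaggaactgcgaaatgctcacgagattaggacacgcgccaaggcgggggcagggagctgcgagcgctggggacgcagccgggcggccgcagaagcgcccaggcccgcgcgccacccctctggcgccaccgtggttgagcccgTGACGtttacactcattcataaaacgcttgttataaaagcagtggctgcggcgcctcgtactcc

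The TGACG core began 137 bases before the start in JUNB, 123 in JUN and 64 in FOS. The 8 subunit genes with a RefSeq window had 9 windows of 300 bases around a start (250 before, 50 after), searched on both strands. The TGACG core was found in 7 of the 9 windows, in 7 genes, all except BATF, against 24.6% of all 35116 windows. The TGANNTCA site, which can overlap a TGACG core, was found in 3 of the 9 windows, those of JUN (67 bases before the start), JUND and MAFF, against 11.5% of all windows. The 7-base AP-1 site TGANTCA was found in FOSL2 (7.71% of all windows). The RUNX site TGTGGT was found in BATF (13.1% of all windows), and the CArG box, the core of serum response elements, in none of the 8 genes (1.29% of all windows). These are matches of letters in a short window and not measured binding. Sequence farther from the start was not searched, so a CArG box outside the window would be missed.

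The knockdown itself was checked first. The brightest RUNX2 probe (accession NM_004348) had log2 ratios of cl-sh3 over control of -2.04 and -1.30 in hybridizations 1 and 2, on average 3.18-fold lower. A second probe of that accession had 0.175 and -0.13, and a probe of NM_001015051 had -0.29 and -0.17. In this last probe the control was well above background in hybridization 1 alone. Thus 1 of the 3 probes showed the decrease, and the mean of all kept RUNX2 probes did not pass 2-fold in both hybridizations. The study itself counted RUNX2 among the genes more than 2-fold lower on these arrays. By RT-PCR and Western blot, it also reported lower RUNX2 RNA and protein in this clone. A probe was kept when at least 1 of the RNAs was well above background in both hybridizations, by the scanner software's flag. Of the 36065 kept probes, 44 passed 2-fold upward and 142 downward for cl-sh3 in both dye orientations, against 77 and 124 when loess was replaced by centring on the array's median, and 103 and 253 with the scanner software's own ratios. Between hybridizations, the median probe moved by 0.22 on the log2 scale. Of the epithelial markers, all 7 with a probe (KRT7, KRT8, KRT18, KRT19, EPCAM, CDH1 and ERBB2) were well above background in both clones, and so were 3 of 4 leukocyte markers (all except LYZ), 2 of 3 endothelial and 3 of 3 fibroblast markers, so the flag alone does not mark a cell type. Mean ratios were -0.070 to 0.034 for the ovarian markers PAX8, WT1 and MUC16, -0.13 to 0.14 for leukocyte, -0.15 to 0.18 for endothelial and -0.30 to -0.099 for fibroblast markers. In cl-sh3, 6 of the 7 epithelial markers had ratios above 0 in both hybridizations, against 30.9% of all genes by their brightest probe. Their means ran from 0.34 (CDH1, at 0.0085 and 0.66) to 0.83 (KRT7). ERBB2 was below 0 in both, as were 28.4% of all genes, with a mean of -0.66. The part of these shifts in the values below was not tested.

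None of the measured AP-1 subunits reached 2-fold. Of the 13 probes, 12 probes of 8 genes were kept, and 0 of the 12 passed 2-fold in both hybridizations, where 0.516% of all kept probes did (0.122% upward and 0.394% downward). No kept probe of a subunit reached 2-fold in either hybridization. At 1.5-fold in both hybridizations, 1 of the 12 probes passed, the brightest of JUNB, against 3.67% of all kept probes (1.35% upward and 2.32% downward). The ratio was below 0 in both hybridizations for 4 of the 12 probes (27.3% of all kept probes), above 0 in both for 2 (29.8%), and of opposite sign for 6 (42.9%). Taking each gene by its brightest probe, the median of the 8 mean ratios was -0.072, against 0.013 for the 16147 genes measured. In total RNA of a clone, fewer cells that express a gene and less RNA per cell cannot be told apart.

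**Figure D1:**
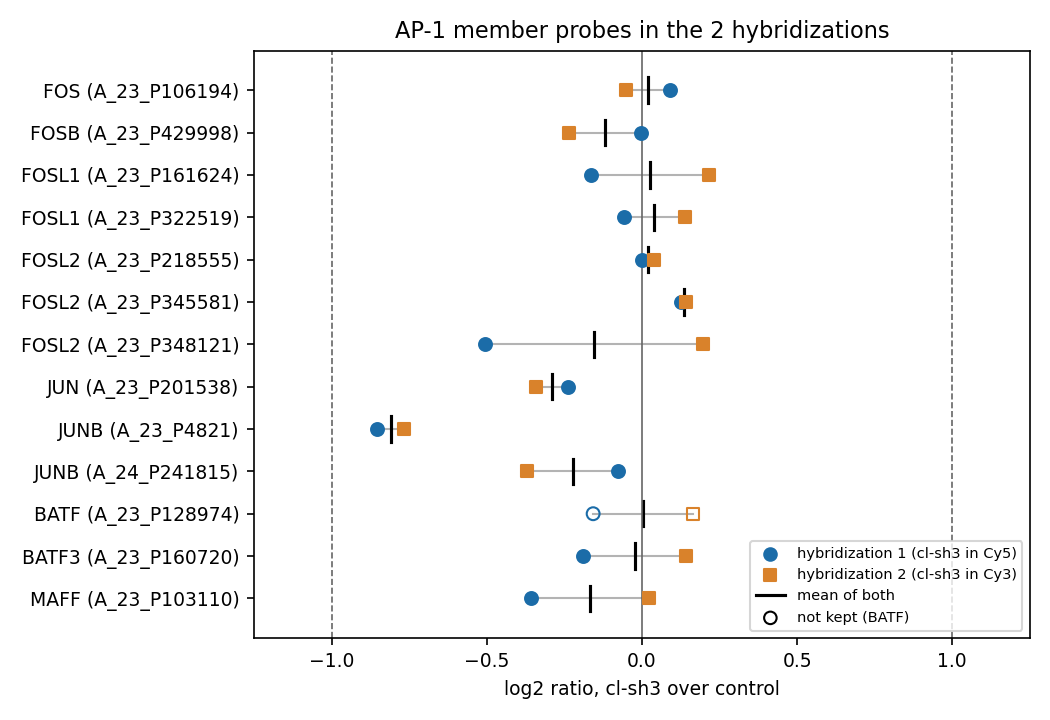
Log2 ratio of cl-sh3 over control for each of the 13 AP-1 probes. Circles are hybridization 1, squares hybridization 2, black bars their mean, dashed lines 2-fold, and open symbols the BATF probe, which was not kept. The brightest JUNB probe lies at -0.85 and -0.77, and the other probes lie between -0.51 and 0.22 in each hybridization.

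JUNB, a JUN protein that is generally a weaker activator than JUN, was the lowest subunit in cl-sh3. After normalization, the log2 intensity of its brightest probe was 14.23 and 14.42 in cl-sh3 and 15.08 and 15.18 in the control clone, in hybridizations 1 and 2. Both values of cl-sh3 were below both values of the control. The log2 ratios were -0.85 and -0.77, and their mean of -0.81 stands for a 1.75-fold lower signal. The difference of 0.088 between the hybridizations was smaller than the median of 0.23 for the 831 probes of similar brightness. Ratios this low in both hybridizations, at or below -0.77, were found for 395 of the 36065 kept probes, or 1.095%. This share belongs to the lowest of the 12 kept subunit probes and has to be read with that choice in mind.

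A second probe of the same JUNB accession (NM_002229) gave a smaller difference. Its log2 ratios were -0.078 and -0.37, a mean of -0.22. Ratios at or below -0.078 in both hybridizations were found for 6847 kept probes, or 19.0%. The normalized log2 intensities of the clones overlapped for this probe. In the scanner, its raw intensities were 814 for cl-sh3 and 420.5 for the control in hybridization 1, over local backgrounds of 147 and 47. The brightest probe had raw intensities of 28101 and 25814 there, over backgrounds of 189.5 and 45.5. In hybridization 2, with the dyes swapped, the raw intensities were 344 and 638.5 for the second probe and 20454 and 36595 for the brightest. Raw intensities were taken before normalization. Over all gene spots, their medians for cl-sh3 and control were 902.5 and 451 in hybridization 1, and 507.5 and 684 in hybridization 2. The arrays hold no further probe of JUNB, and which of the pair reports the transcript better was not tested.

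JUN, the founding subunit and the substrate of the JUN N-terminal kinases, was slightly lower in cl-sh3. Its probe (accession NM_002228) is printed in 10 spots on each array. The normalized log2 intensity was 14.62 and 14.37 in cl-sh3 and 14.86 and 14.71 in the control, again without overlap. Of the 12 kept probes of subunits, 3 had clones that did not overlap in this way (the brightest JUNB probe, JUN and 1 FOSL2 probe), against 40.8% of all kept probes. JUNB and JUN were lower in cl-sh3 without overlap, as were 20.8% of all kept probes. For JUN the log2 ratios were -0.24 and -0.34, and their mean of -0.29 stands for a 1.22-fold lower signal. Ratios at or below -0.24 in both hybridizations were common, being found for 3539 probes, or 9.81%. When each array was centred on its median and loess was not used, the ratio of JUN in hybridization 1 was -0.0015, and its mean -0.15.

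The repeated spots show the technical error of JUN more closely. In hybridization 1 the 10 spots ranged from -0.40 to -0.076, with an SD of 0.13 and a median of -0.23. In hybridization 2, where 2 spots were left out as outliers, the other 8 ranged from -0.48 to -0.24, with an SD of 0.099 and a median of -0.32. All the spots used were below 0 in each hybridization. The 3 spots nearest the first row of the array (rows 4, 16 and 42) were the closest to 0 in hybridization 1 and the farthest from 0 in hybridization 2. When both hybridizations were averaged spot by spot, the 8 spots ranged from -0.31 to -0.24, with an SD of 0.023 and a mean of -0.27. The mean of -0.29 given for the probe uses all 10 spots in hybridization 1 and 8 in hybridization 2. The same held for other repeated probes: over 239 probes with at least 8 usable spots, the median SD was 0.12 in each hybridization and 0.042 for the mean of both, and the mean had the smaller SD for 228 of them. The probes of the other subunits are printed in 1 spot each, so this spread could not be measured for them.

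**Figure D2:**
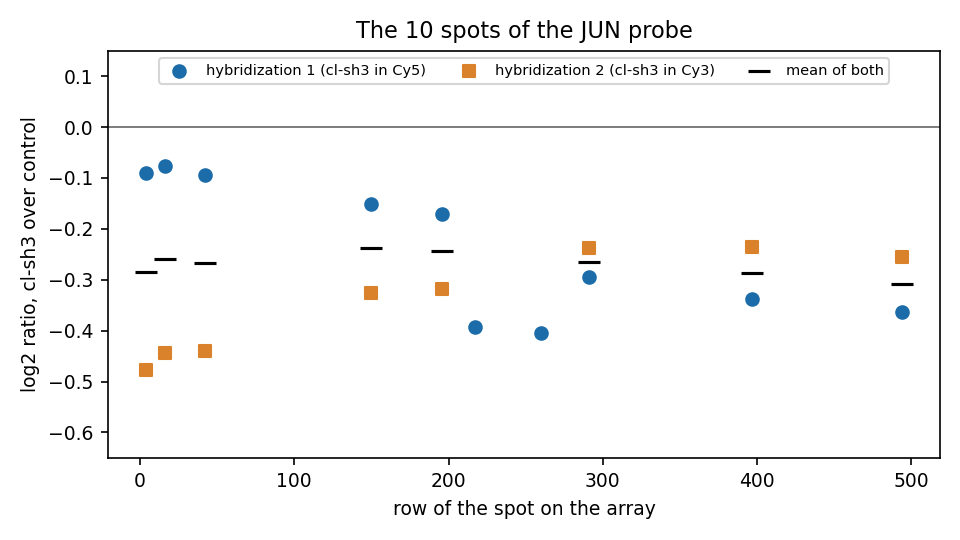
Log2 ratio of cl-sh3 over control for the 10 spots of the JUN probe, by row on the array. Circles are hybridization 1, squares hybridization 2 (2 outlier spots left out), and bars the mean of both, which stays between -0.31 and -0.24 while the 2 hybridizations run in opposite directions along the array.

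JUND, the JUN protein that is usually present in resting cells, had no matched probe and is not analysed here. All 3 kept probes of the JUN family were thus below 0 in both hybridizations, against 27.3% of all kept probes, with means from -0.81 to -0.22. They are both JUNB probes and the JUN probe. With median centring in place of loess, JUN and the dimmer JUNB probe were at -0.0015 and -0.0078 in hybridization 1.

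The FOS family stayed close to 0. Its 7 kept probes had means from -0.16 to 0.13, and 1 of the 7 was below 0 in both hybridizations. FOS, the most strongly serum-induced subunit, had log2 ratios of 0.089 and -0.053, a mean of 0.018. Its raw intensities were 524.5 for cl-sh3 and 230.5 for the control in hybridization 1, over backgrounds of 143.5 and 47.5, and 254.5 and 460.5 in hybridization 2, over 44 and 198. Both clones met the background flag each time, and the ratio turned its sign with the dyes. FOSB, an inducible partner with long and short forms, had -0.0035 and -0.24, a mean of -0.12.

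FOSL1, also called FRA1 and often high in invasive carcinoma cells, was covered by 2 probes. The brighter had log2 ratios of -0.17 and 0.22, and the other -0.058 and 0.14, so that both means (0.026 and 0.040) were close to 0. In both probes the ratio was below 0 with cl-sh3 in Cy5 and above 0 with cl-sh3 in Cy3. For the dimmer probe the control RNA was not well above background in hybridization 2.

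FOSL2 (FRA2), known for its role in bone and cartilage, was covered by 3 probes of NM_005253. The brightest was at 0.0007 and 0.038, and the second at 0.13 and 0.14. The third probe gave -0.51 and 0.20, a difference of 0.70 between hybridizations that was larger than that of 96.0% of the 5866 probes of similar brightness. Its mean was -0.16. The 3 means for the same accession thus spanned 0.29 on the log2 scale, from -0.16 to 0.13, with no common direction.

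BATF and BATF3, known mainly from lymphocytes and dendritic cells, gave little signal or ratios of opposite sign. The BATF probe was not kept, because the flag was met for cl-sh3 with hybridization 2 alone and for the control in neither, and no fold is given for it. BATF3 met the flag for both RNAs, with log2 ratios of -0.19 and 0.14, a mean of -0.024. MAFF, a stress-inducible small MAF protein, had -0.36 and 0.021, a mean of -0.17. Outside JUN and JUNB, the 9 kept probes of 6 genes had means from -0.17 to 0.13.

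**Figure D3:**
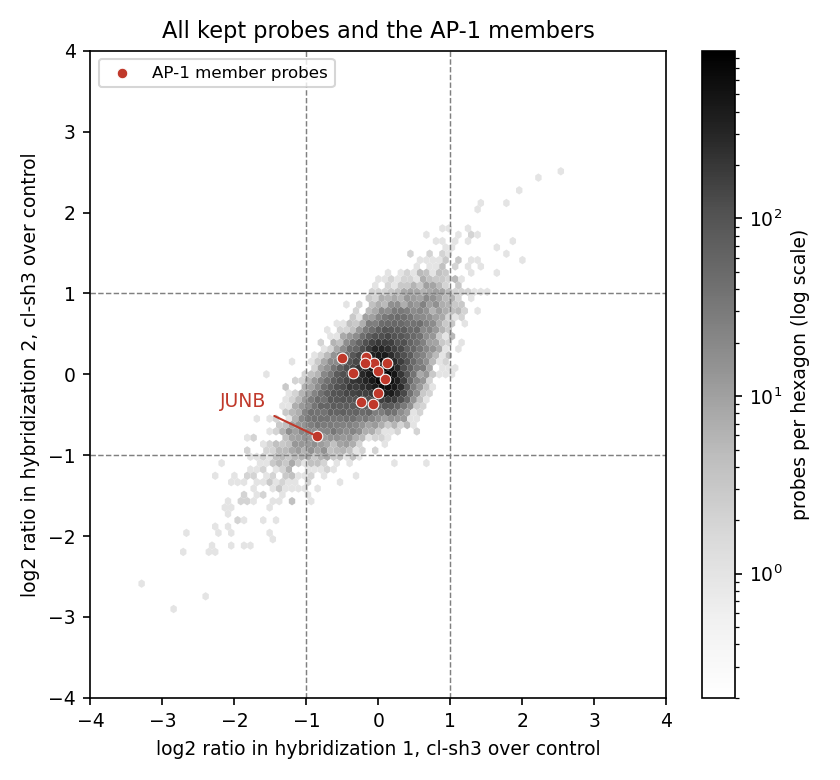
Log2 ratio of cl-sh3 over control in hybridization 1 (x axis) against hybridization 2 (y axis) for the kept probes, shaded by the number of probes per hexagon on a log scale, with the 12 kept AP-1 probes in red and dashed lines at 2-fold. The red points lie inside the dense centre, with JUNB at its lower left edge at -0.85 and -0.77.

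Other bZIP proteins that can join AP-1 subunits or share their sites included strongly lower genes. Of 13 such genes, all kept, 2 passed 2-fold downward in both hybridizations and 0 upward, where 0.656% of all genes by their brightest probe passed 2-fold (0.52% downward and 0.136% upward). At 1.5-fold the same 2 genes passed, against 4.21% of all genes (2.6% downward and 1.6% upward). This list and those below were chosen with earlier results of these data known. Their counts beside the share of all genes are therefore a description and not a test of the lists. ATF3, a stress-induced factor that pairs with JUN proteins, had log2 ratios of -1.23 and -1.27, or 2.37-fold lower. A dimmer ATF3 probe, which was not kept, gave -0.57 and -0.020. NFE2, the large partner of small MAF proteins in blood cells, had -1.60 and -1.29, or 2.73-fold lower, from a single probe. The highest of the list was MAFK, a small MAF protein, at 0.033 and 0.062. The median of the 13 genes was -0.30, with -0.27 in hybridization 1 and -0.30 in hybridization 2, and 7 were below 0 in both hybridizations against 28.4% of all genes, while 1 was above 0 in both against 30.9%.

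Among 26 kinases and regulators that act on AP-1 subunits, 25 were measured and no probe was matched to MAPK8 (JNK1). The JUN N-terminal kinase MAPK9 (JNK2) was the lowest, with log2 ratios of -1.90 and -1.58, or 3.34-fold lower, and was the one gene of the 25 past 2-fold in both hybridizations, against 0.656% of all genes. The highest was MAP2K2, a kinase that activates ERK, at 0.30 and 1.11, past 2-fold in hybridization 2 only. MAP2K1, its close relative, was at -0.83 and -0.63. It is named because it was the only other gene of the list past 1.5-fold in both (4.21% of all genes), a choice made after its value was seen. Of the 25 genes, 8 were below 0 and 8 above 0 in both hybridizations, against 28.4% and 30.9% of all genes, with medians of 0.016 and -0.0093.

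Of 31 other immediate early genes, all kept, 1 passed 2-fold downward and 0 upward in both hybridizations, against 0.52% and 0.136% of all genes. PHLDA1, a growth factor-induced protein with roles in apoptosis, was that gene, at -1.38 and -1.098, or 2.36-fold lower. Its 3 other probes had means from -1.06 to -0.19, and with the mean of all kept probes of each gene the number of lower genes in this list was 0. The highest was CCN2 (CTGF), a secreted matrix protein, at 0.95 and 1.16, a mean 2.08-fold higher. It passed 2-fold in both hybridizations with median centring and with the scanner software's ratios. Past 1.5-fold in both were also KLF10 (-0.82 and -0.67) and ZFP36L1 (-0.62 and -0.59), both lower and both named after their values were seen, though a dimmer ZFP36L1 probe was at -0.044 and 0.27. In all, 3 genes of the list passed 1.5-fold downward (2.6% of all genes) and 1 upward (1.6%). EGR1, which is induced by the same signals as FOS, was at -0.33 and -0.43. The median of the 31 genes was -0.033, with 13 below 0 and 5 above 0 in both hybridizations, against 28.4% and 30.9% of all genes.

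Of 37 genes known to be driven through AP-1 sites, 36 were kept, and the 2 past 2-fold in both hybridizations were collagenases, both lower, where 0.52% of all genes passed downward. MMP1, interstitial collagenase, had log2 ratios of -2.82 and -2.91, or 7.28-fold lower. MMP13, collagenase 3 and a known joint target of RUNX2 and AP-1 in bone, had -2.27 and -2.21. Its cl-sh3 signal met the background flag with hybridization 2 alone, so that the probe was kept through the control, and its mean ranged from -3.81 to -1.64 over the processing alternatives. With both RNAs required to meet the flag each time, MMP13 was left out and 1 gene of the list passed, while hybridization 1 alone gave 5 lower genes. The highest was TGM1, a cross-linking enzyme of keratinocytes, at 0.51 and 1.12. Past 1.5-fold in both, and named after their values were seen, were CXCL8 (-1.05 and -0.84), a neutrophil chemokine, and VEGFA (-0.91 and -0.87), an angiogenic factor, both lower, and KRT17 (0.70 and 0.65), a keratin, which was higher. The KRT17 control signal met the flag in hybridization 1 alone. In all, 4 genes of the list passed 1.5-fold downward (2.6% of all genes) and 1 upward (1.6%). The 3 other VEGFA probes had means from -0.92 to -0.25. EZR, also named after its values were seen, a membrane to cytoskeleton linker, was at -0.20 and 0.30 by its brightest probe, while its other probe gave 1.63 and 1.28. The median of the 36 genes was -0.061, with 15 below 0 and 11 above 0 in both hybridizations, against 28.4% and 30.9% of all genes.

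**Figure D4:**
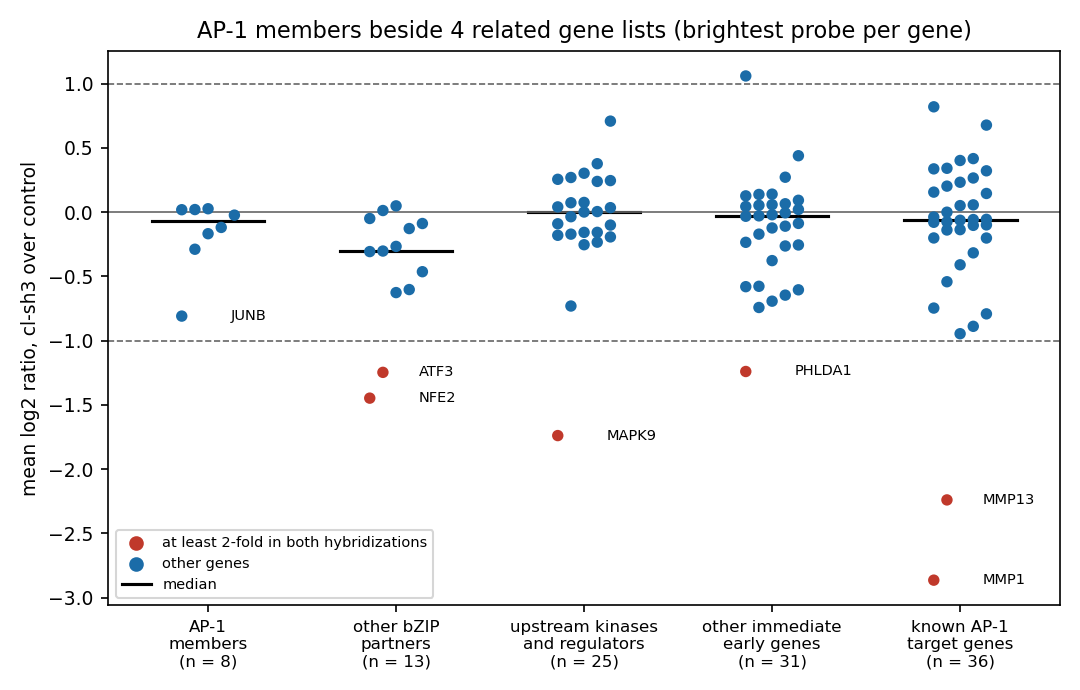
Mean log2 ratio of cl-sh3 over control for 8 AP-1 subunits and 4 lists of related genes, 1 point per gene by its brightest probe, with black bars at medians and dashed lines at 2-fold. Red points passed 2-fold in both dye orientations, all downward, and none of them is an AP-1 subunit.

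Of the RUNX partners themselves, RUNX1 was at 0.11 and 0.37, RUNX3 at 0.52 and 0.15, and CBFB, the shared partner without DNA contacts of its own, at -0.061 and 0.28. A second CBFB probe gave -0.34 and -0.0005. Protein levels or phosphorylation of the subunits were not measured on these arrays.

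Over 7 alternatives in background correction, normalization, flagged spots and source of the ratios, the mean of the brightest JUNB probe ranged from -0.81 to -0.68. Aquantile after loess leaves the ratios as they are, and the deposited value table repeats the software's ratios. At most 5 of the 7 could thus give an outcome of their own. This JUNB probe is far above background with 0 flagged spots, so background and flag handling could hardly move it. Its mean stayed at -0.81 under those alternatives, and was -0.68 with median centring and -0.79 with the software's ratios. In each of the 5, this JUNB probe passed 1.5-fold downward in both dye orientations and did not pass 2-fold. In the same 5, JUN was below 0 in both hybridizations, with means from -0.29 to -0.15.

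**Figure D5:**
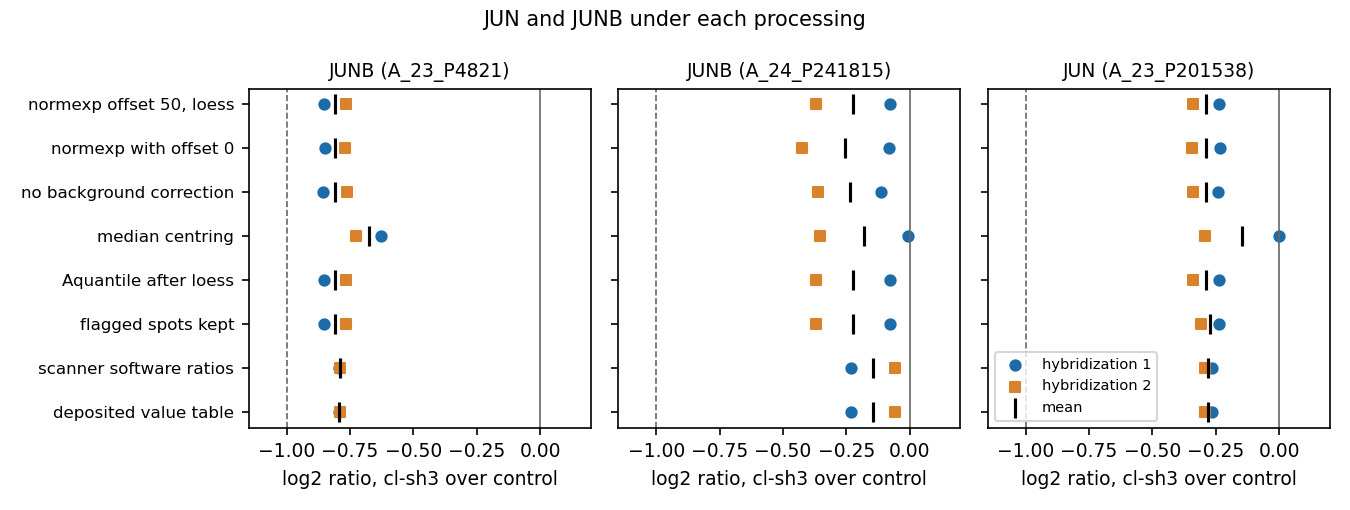
Log2 ratio of cl-sh3 over control for both JUNB probes and the JUN probe under 8 ways of processing (rows), with circles for hybridization 1, squares for hybridization 2, bars for the mean and a dashed line at 2-fold. The brightest JUNB probe stays between -0.86 and -0.63, while median centring brings JUN to -0.0015 in hybridization 1.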

How the data were processed

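For each spot, the deposited files give intensity, local background and flags from Agilent Feature Extraction (10.5.1.1 in the file headers, 8.5.1.1 in the submitters' processing notes). The authors also deposited the log10 ratio (Cy5 over Cy3) computed by the same program, and the deposited value table repeats it to within 0.00245 and 0.00500. The design file names build hg18, and no coordinates of it are used. Median pixel intensities were corrected with normexp (offset 50) over the median background in limma 3.58.1 (R 4.3.3). Control spots were then dropped, spots with outlier flags (153 and 144) set to missing, and loess was applied within each array before averaging the spots of each probe. Per-clone intensities come from Aquantile after loess. A channel counted as well above background when at least 50% of a probe's spots had the flag. No spot was saturated. A probe was called when at least 2-fold changed in the same direction in both hybridizations, the selection used in the study, and no test was made because there is 1 replicate. The number of arrays limits the precision.

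Symbols were found for 18021 of the 32890 accessions, from RefSeq (GRCh38.p14) except NM_004348, named RUNX2 from the study's gene list. The subunits, the 5 gene lists (the RUNX factors and CBFB being 1 of them) and the rule for named genes were chosen with earlier results of these data known. That rule takes every subunit probe, list genes past 2-fold in both hybridizations, the highest and lowest gene of each list, RUNX1, RUNX2, RUNX3, CBFB, MMP1 and MMP13. EGR1, EZR, JUND, MAPK8, the cell type markers and the genes past 1.5-fold are named outside it. The TGANNTCA site was added after the promoters were read. The steps were run on simulated data (41000 probes, cl-sh3 against control with dyes swapped), where 200 of 200 altered probes were called and 0 others. The altered probes were all set well past 2-fold, with noise small beside that distance and no trend along the rows. Such a result was therefore close to given by the settings. It checks the code and does not measure how reliable the calls on the real arrays are. How well ratios close to 2-fold are called in the real arrays was not tested. Counts were made in Python 3.11.15 (pandas 2.3.3, numpy 2.4.6) and figures drawn in matplotlib 3.10.9. Alternatives covered background correction, normalization, flagged spots, filter, fold and source of the ratios.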

Additional observations from a re-analysis of the deposited data

How the results depend on the processing

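The count of AP-1 subunit probes and genes at least 2-fold changed in both hybridizations was 0 under each alternative that kept the 2-fold rule, single hybridizations and their mean included. With a fold of at least 1.5 in each hybridization it was 1 lower probe and 1 lower gene, JUNB by its brightest probe. Of all kept probes, 487 were higher and 837 lower at that fold. The dimmer JUNB probe, at -0.078 and -0.37, did not pass, so the gene count depends on the choice of probe. Over all kept probes, 77 were higher with median centring, 103 higher and 253 lower with the scanner software's ratios, 103 and 251 with the deposited value table, and 93 and 250 with 2-fold in the mean. Leaving out 1 hybridization gave 88 to 219 higher and 196 to 506 lower probes, the larger number of lower ones with hybridization 1 alone. The cause of these differences was not tested. Among the subunits, with single hybridizations left aside, the sign of the mean turned in some alternatives for FOS, BATF3 and the dimmer FOSL1 probe. These all lay within 0.091 of 0. Between the 2 hybridizations, the sign differed for 6 of the 12 kept subunit probes. MMP13, measured near background, had means from -3.81 to -1.64. Signal over background limits BATF, the dimmer FOSL1 probe, MMP13, KRT17 and a dimmer RUNX2 probe, among others. These did not meet the background flag in every channel. No paired analysis was possible because both hybridizations belong to 1 comparison of the same RNAs.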
